A study of Homo sapiens with 6 samples.

Results

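The HSP70 family comprises ATP-driven chaperones that bind exposed hydrophobic stretches of unfolded proteins and release them in cycles set by J-domain proteins, which stimulate ATP hydrolysis, and by nucleotide exchange factors, which open the nucleotide pocket. Family members divide the work by compartment and by regulation. Some are made constantly, while others are induced by heat and proteotoxic stress through the heat shock factor HSF1. The 10 genes described here, *HSPA1A*, *HSPA1B*, *HSPA2*, *HSPA4*, *HSPA4L*, *HSPA5*, *HSPA8*, *HSPA9*, *HSPA13* and *HSPA14*, were chosen by symbol from the read-count tables, out of 55767 symbols in all, and all 10 had enough reads to be among the 23304 genes tested.

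RNA-seq counts came from 6 libraries of HEK293T, a human embryonic kidney line that carries the SV40 large T antigen. The first group of 3 libraries was from cells expressing a control short-hairpin RNA (sh-control) and the second group of 3 from cells labelled as expressing a short-hairpin RNA against *RREB1* (sh-*RREB1*), both grown in DMEM with 10% FBS. *RREB1* encodes a zinc finger transcription factor that acts downstream of RAS. The hairpin lines are described as stable, so all libraries of a group come from cells that share 1 hairpin, and no source used here says whether the replicates were separate cultures. The p-values then measure the spread between these libraries, which may be technical.

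*RREB1* itself averaged 26.3 ± 1.02 CPM (reads per 1000000 reads on genes, SD, n = 3) for sh-control and 23.8 ± 0.736 CPM (SD, n = 3) for the libraries labelled sh-*RREB1*. The log2 fold change was −0.14 (edgeR's quasi-likelihood test, SE 0.128, adjusted p = 0.486), with all 3 libraries below the sh-control range. In a fit corrected for GC content, described with the family's values, it was −0.36 (95% interval −0.63 to −0.10, edgeR adjusted p = 0.0534). Neither value passed the threshold, so every direction below is between libraries by their labels. The depth, as reads on genes, was 23362197 to 33044061 for sh-control and 12257054 to 26145878 for sh-*RREB1*. The library labelled sh-*RREB1* replicate 3 was the shallowest, and 52.1% of its aligned reads mapped to several places, compared to 3.66% to 7.63% in the other 5. HEK293 marker genes *VIM*, *NEFL*, *NEFM*, *KRT8*, *KRT18* and *EYA1* were detected in every library and *PAX2* was near 0, at 0.094 to 0.476 CPM. The 8 markers of the line summed to 437.4 to 503.3 CPM in sh-control and 752.4 to 869.3 CPM in sh-*RREB1*, and 5 of them were higher in every sh-*RREB1* library, among them *EYA1* (8.91 to 10.0 against 32.9 to 35.8 CPM) and *VIM* (329.7 to 360.1 against 530.2 to 616.0 CPM). The 4 fibroblast markers summed to 0.914 to 1.497 CPM in sh-control and 1.19 to 8.56 CPM in sh-*RREB1*. The highest sum was in sh-*RREB1* replicate 2, where *COL1A2* reached 3.94 CPM. *COL1A1* was higher in every sh-*RREB1* library. *LUM*, at 0.566 to 0.717 CPM in sh-control, was at 0.363, 1.338 and 0.159 CPM in sh-*RREB1* replicates 1, 2 and 3. *DCN* was at 0 to 0.094 CPM in sh-control and at 0, 0.65 and 0 CPM in sh-*RREB1*. Liver *ALB* (0.479 to 0.515 against 0 to 0.322 CPM) and endothelial *PECAM1* (0.125 to 0.174 against 0 to 0.121 CPM) were lower in every sh-*RREB1* library. The part of these differences in the results below was not tested. Of the blood markers, *PTPRC* had 9 reads over the 6 libraries together, and *CD3E* and *HBB* had 0.

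One of the 10 genes, *HSPA1B*, passed the test (adjusted p under 0.01 with a log2 fold change beyond 1 in either direction) and was higher in sh-*RREB1*. By the same rule 3.41% of all genes tested were called, 2.71% higher and 0.699% lower in sh-*RREB1*. No HSP70 gene was called lower by edgeR or by DESeq2, and 4 were lower at an unadjusted edgeR p below 0.05. The share of all genes past that unadjusted p is not given, so such counts, here and below, have no background beside them. Without the minimum fold, *HSPA1B* and *HSPA4* passed, beside 5.5% of all genes. The median log2 fold change of the 10 genes was −0.10, with 4 above 0 and 6 below. The median of all genes tested was 0.01, with 11857 above 0 and 11447 below. The 3 libraries of one group lay wholly above or below the 3 of the other in 7 of the 10 genes, 3 higher and 4 lower in sh-*RREB1*, and in 41.1% of all genes tested.

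**Figure D1:**
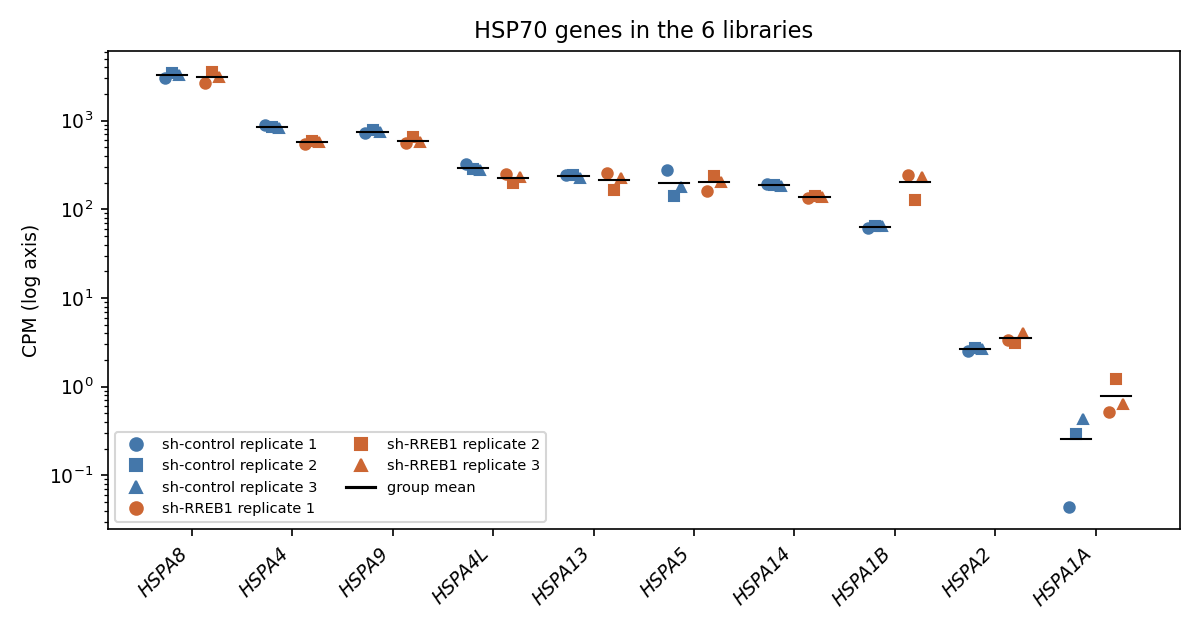
Points give the CPM (log axis) of each HSP70 gene in each of the 6 libraries, circles, squares and triangles for replicates 1, 2 and 3, blue for sh-control and orange for sh-*RREB1*, with black bars at the group means. *HSPA8* sits near the top of the axis in both groups, and *HSPA1B* is the abundant gene whose sh-*RREB1* points, 128.8 to 246.9 CPM, all lie above its sh-control points, 61.8 to 65.3 CPM.

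The fold change of a gene in these data moved with the GC content of its exons. Over 14332 expressed genes split into 10 equal classes by GC content, the median log2 fold change was −0.23 in the class of lowest GC content and 1.11 in the class of highest. A smooth trend on GC content and exonic length was therefore also removed from each library before a second edgeR fit, referred to as GC-corrected. It called 3.02% of all genes tested, with 60.2% of its calls higher in sh-*RREB1* against 79.5% without the correction, and none of the 10 HSP70 genes, 2 of which were higher and 2 lower at an unadjusted p below 0.05 in that fit. Without the minimum fold it called 11.4% of all genes and again none of the 10. The groups differ in their trend on GC content, so whether the trend is technical or biological cannot be told apart here.

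The inducible cytosolic pair is considered first. *HSPA1A* and *HSPA1B* encode almost the same stress-inducible HSP70 protein and lie on chromosome 6 of GRCh38, *HSPA1A* (ENSG00000204389) at chr6:31815543-31817946 and *HSPA1B* (ENSG00000204388) at chr6:31827738-31830254, both on the plus strand. Each is a single exon with a coding sequence of 1926 bases, and the coding sequences differed at 4 bases (99.8% identity). Of all stretches of 75 bases in the annotated transcripts, 71.6% of those of *HSPA1A* also occur in *HSPA1B*. No stretch of that length in the other 8 genes occurs in another member. The authors' counts leave out reads that map to several places, so reads from shared stretches count for neither gene. In the canonical transcripts, 610 stretches of 75 bases were found in *HSPA1A* and in no other member, of which 260 reached into its 3′ untranslated region and 350 lay before it. For *HSPA1B* these were 727, 378 and 349. The later Gencode version used here for coordinates also places exons of ENSG00000285565 on the strand of *HSPA1B* over its own.

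The upstream sequences of the 4 members whose known induction differs are shown, each as the 250 bases before the RefSeq transcription start on GRCh38.p14, read 5′ to 3′ on the strand of the gene. For *HSPA1A* (chr6:31815293-31815542, plus strand), *HSPA1B* (chr6:31827488-31827737, plus strand) and *HSPA8* (chr11:123062137-123062386, minus strand), capitals mark paired half-sites of a heat shock element, the site bound by HSF1, searched as GAANNTTC and TTCNNGAA on both strands. For *HSPA5* (chr9:125241344-125241593, minus strand), capitals mark the ER stress response element, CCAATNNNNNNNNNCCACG, searched on both strands.
HSPA1A: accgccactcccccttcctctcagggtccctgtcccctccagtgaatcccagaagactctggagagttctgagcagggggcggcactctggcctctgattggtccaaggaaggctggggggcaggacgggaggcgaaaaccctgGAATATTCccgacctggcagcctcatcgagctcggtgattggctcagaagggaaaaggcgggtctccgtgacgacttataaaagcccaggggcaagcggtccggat
HSPA1B: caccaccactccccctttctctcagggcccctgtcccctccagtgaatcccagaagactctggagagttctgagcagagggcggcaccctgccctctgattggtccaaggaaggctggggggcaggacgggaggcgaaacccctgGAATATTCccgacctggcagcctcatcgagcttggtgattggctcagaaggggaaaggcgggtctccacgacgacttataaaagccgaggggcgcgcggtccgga
HSPA8: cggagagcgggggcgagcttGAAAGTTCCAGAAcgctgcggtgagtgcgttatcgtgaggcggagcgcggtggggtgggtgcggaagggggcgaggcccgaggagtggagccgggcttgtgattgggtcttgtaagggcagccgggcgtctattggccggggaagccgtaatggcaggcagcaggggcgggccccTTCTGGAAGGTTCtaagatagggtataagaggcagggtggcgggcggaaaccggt
HSPA5: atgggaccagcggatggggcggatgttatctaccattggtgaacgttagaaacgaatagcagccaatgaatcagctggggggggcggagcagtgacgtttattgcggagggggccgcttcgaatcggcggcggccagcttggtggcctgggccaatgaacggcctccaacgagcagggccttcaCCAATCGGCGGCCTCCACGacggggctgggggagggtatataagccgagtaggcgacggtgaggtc

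The 2 inducible copies share the same pair of half-sites, from position -106 to -99 in *HSPA1A* and from -105 to -98 in *HSPA1B*, counted from the transcription start, and both hold TATAAA closer to the start. Over the whole window of 250 bases before and 50 after the start, the 2 promoters were 92.0% identical. *HSPA8* holds 3 consecutive half-sites (GAANNTTCNNGAA or TTCNNGAANNTTC) at 2 places, from -230 to -218 and from -55 to -43. The *HSPA5* element lies from -66 to -48. Among 35116 RefSeq promoters of this length, 13.5% held a pair of half-sites, 0.49% held 3 in a row and 0.0769% held the ER stress response element. A pair was also found in 1 of the 3 promoter windows of *HSPA4L* from -170 to -163 and in *HSPA9* from -4 to 4. *HSPA2*, *HSPA4*, *HSPA5* and *HSPA13* have no pair of these letters in their window, and *HSPA14* was not among the promoters matched. These are matches of letters and were not tested for binding.

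For *HSPA1B*, sh-control replicates 1, 2 and 3 gave 1421, 1774 and 2082 reads, or 61.8, 65.3 and 64.9 CPM. The libraries labelled sh-*RREB1*, in the same order, gave 6126, 3368 and 2897 reads, or 246.9, 128.8 and 229.8 CPM. The groups do not overlap, the 3 sh-control libraries are within a narrow band, and sh-*RREB1* replicate 2 is well below the other 2 of its group. The means were 64.0 ± 1.89 and 201.8 ± 63.8 CPM (SD, n = 3 each), 3.15-fold higher in sh-*RREB1* by the fitted log2 fold change of 1.66 (95% interval 1.16 to 2.15). The adjusted p was 0.00357 by edgeR and 5.12e-09 by DESeq2. With *HSPA1A* and *HSPA1B* summed as 1 gene, the log2 fold change was 1.66 and the adjusted p by edgeR was 0.00354. *HSPA1A* adds only 1 to 32 reads per library, so the sum had to be close to *HSPA1B* alone. Reads from the shared stretches are missing from the sum as well. As bulk RNA, more RNA per cell and more cells with the RNA cannot be told apart.

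The call on *HSPA1B* depended on the correction and on single libraries. In the GC-corrected fit its log2 fold change was 0.93 (95% interval 0.29 to 1.56, edgeR adjusted p = 0.0404), a 1.90-fold difference that did not pass. When libraries were left out one at a time, it was 1.49 to 1.90. The adjusted p by edgeR was above 0.01 without sh-control replicate 2 (0.0340), sh-control replicate 3 (0.0114), sh-*RREB1* replicate 1 (0.0166) or sh-*RREB1* replicate 3 (0.0253), and 0.00298 and 0.000681 without sh-control replicate 1 or sh-*RREB1* replicate 2. Calls over all genes also fell, from 794 to 9 without sh-control replicate 2 and 383 without sh-control replicate 3. They were 25 without sh-*RREB1* replicate 1 and 8 without sh-*RREB1* replicate 3. In a fit chosen after seeing the data, the 2 libraries that stand apart were left out. These were sh-control replicate 1, by its trend on GC content, and sh-*RREB1* replicate 3, by its reads mapped to several places. The log2 fold change of *HSPA1B* was then 1.53 with an adjusted p by edgeR of 0.00986.

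At 58.8%, the GC content of the *HSPA1B* exons is in the ninth of the 10 classes, where the median log2 fold change was 0.61. The 1.66 of *HSPA1B* was above 97.8% of the genes in that class. Compared with the mean log2 CPM of sh-control, *HSPA1B* was higher by 1.95, 1.01 and 1.84 in sh-*RREB1* replicates 1, 2 and 3, while the median gene of its class was higher by 0.48, 0.88 and 0.56. *HSPA1B* was thus far above its class in replicates 1 and 3 and close to it in replicate 2, the library in which the class itself was highest. Within sh-control, the median gene of this class differed by −0.71 between replicate 1 and the mean of replicates 2 and 3, and *HSPA1B* by −0.07.

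*HSPA1A* was near the limit of detection, with 1, 8 and 14 reads in sh-control replicates 1, 2 and 3, or 0.0435, 0.294 and 0.436 CPM. It had 13, 32 and 8 reads in sh-*RREB1*, or 0.524, 1.22 and 0.634 CPM. The sh-*RREB1* libraries were all above the sh-control libraries in CPM, by a log2 fold change of 1.56 with a wide interval of 0.22 to 2.91 that did not pass the test (edgeR adjusted p = 0.0989). The GC-corrected value was 0.80 (edgeR adjusted p = 0.245). These few reads come from the sequence that *HSPA1A* does not share with *HSPA1B*, so they are uncertain as a measure of the gene.

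**Figure D2:**
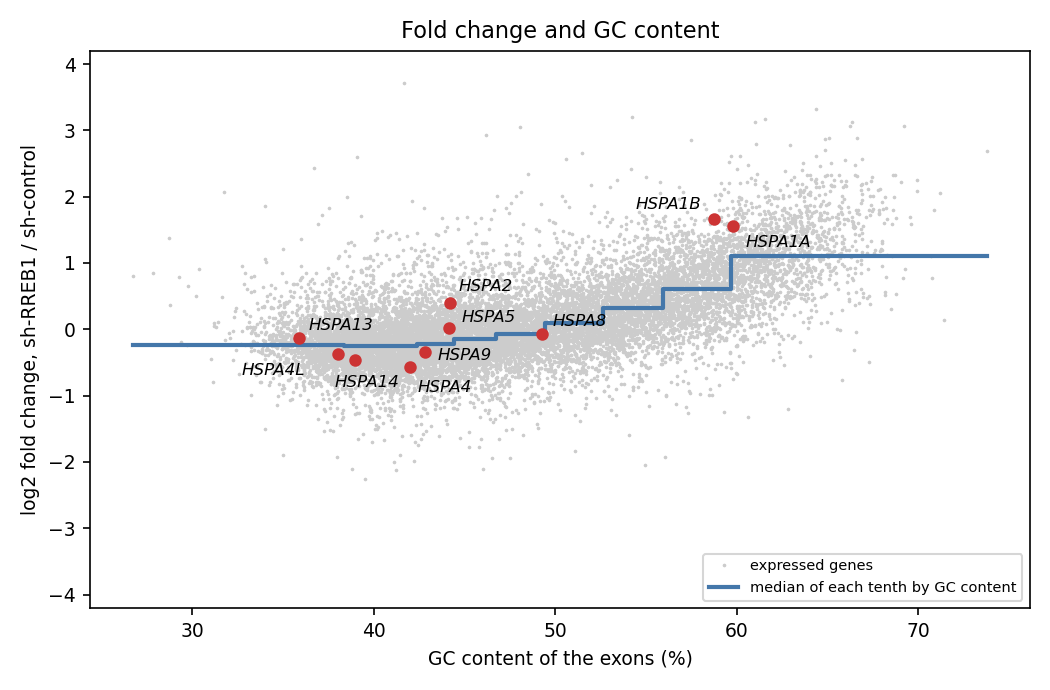
Grey points are expressed genes (mean log2 CPM above 0) by the GC content of their exons in percent (x axis) and log2 fold change of sh-*RREB1* over sh-control (y axis), blue steps are the median of each of the 10 GC classes, and red points are the 10 HSP70 genes. The steps climb from −0.23 to 1.11. *HSPA1B* lies well above the step of its class, and *HSPA4* and *HSPA14* lie below theirs.

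*HSPA8* (ENSG00000109971, chr11:123057489-123063230, minus strand, 9 exons in the canonical transcript) encodes HSC70, the constitutive cytosolic chaperone that also drives clathrin uncoating and chaperone-mediated autophagy. It measured 2990.7, 3466.7 and 3272.9 CPM in sh-control against 2669.3, 3492.4 and 3112.2 CPM in sh-*RREB1*. The groups overlap across most of their range. The log2 fold change was −0.07 (95% interval −0.35 to 0.21, edgeR adjusted p = 0.744), and −0.08 in the GC-corrected fit. *HSPA8* alone made up 52.5% to 62.3% of the summed CPM of the 10 genes in the 6 libraries. *HSPA1B* made up 1.08% to 1.12% of that sum in sh-control and 2.30% to 5.11% in sh-*RREB1*.

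*HSPA2* (ENSG00000126803, chr14:64535905-64546173, plus strand, 1 exon in the canonical transcript), a cytosolic member best known for its role in male germ cells, was low throughout. It measured 2.52, 2.76 and 2.68 CPM in sh-control against 3.38, 3.13 and 4.04 CPM in sh-*RREB1*. The groups do not overlap, with sh-*RREB1* higher, but the log2 fold change of 0.39 did not pass the test (edgeR adjusted p = 0.183). The GC-corrected value was 0.53 (edgeR adjusted p = 0.0442). Its coding sequence was 79.6% identical to that of *HSPA1B*, compared to 73.3% for *HSPA8*.

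The organelle members were next. *HSPA5* (ENSG00000044574, chr9:125234853-125241382, minus strand, 8 exons in the canonical transcript) encodes BiP, the chaperone that binds unfolded protein in the ER lumen and is a standard readout of the unfolded protein response. It measured 274.4, 142.3 and 180.3 CPM in sh-control against 160.5, 239.5 and 204.4 CPM in sh-*RREB1*. The highest and the lowest libraries of all 6 are both sh-control, and the sh-*RREB1* values fall between them. Between the groups the difference was 0.02 on the log2 scale (95% interval −0.52 to 0.55, edgeR adjusted p = 0.969), an interval that leaves room for a change of either sign.

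*HSPA9* (ENSG00000113013, chr5:138553756-138575675, minus strand, 17 exons in the canonical transcript) encodes mortalin, the mitochondrial HSP70 that pulls imported proteins through the inner membrane. It measured 721.0, 791.3 and 749.0 CPM in sh-control against 563.0, 648.5 and 579.9 CPM in sh-*RREB1*. All sh-*RREB1* libraries were below all sh-control libraries. On the log2 scale the difference was −0.34 (95% interval −0.57 to −0.11), and its adjusted p of 0.0484 by edgeR missed the threshold of 0.01. In the GC-corrected fit it was −0.17 (edgeR adjusted p = 0.256).

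*HSPA13* (ENSG00000155304, chr21:14371115-14383484, minus strand, 5 exons in the canonical transcript) encodes a microsome-associated member that lacks the substrate-binding part of the other HSP70 proteins. Its coding sequence of 1416 bases was the shortest of the 10. It measured 241.4, 242.4 and 225.3 CPM in sh-control against 254.8, 165.3 and 227.8 CPM in sh-*RREB1*. Only sh-*RREB1* replicate 2 was below the sh-control range, and the groups overlap. The fitted log2 difference was −0.13 (edgeR adjusted p = 0.605). It turned to 0.061 in the GC-corrected fit and to 0.031 without sh-*RREB1* replicate 2.

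The HSP110-type members *HSPA4* and *HSPA4L* act as nucleotide exchange factors for other HSP70 proteins and hold unfolded clients in solution. *HSPA4* (ENSG00000170606, chr5:133052013-133106449, plus strand, 19 exons) had 883.8, 841.4 and 815.9 CPM in the sh-control libraries, against 542.0, 590.8 and 575.8 CPM in those labelled sh-*RREB1*. The groups are far apart and each is tight, with means of 847.0 ± 34.3 and 569.5 ± 24.98 CPM (SD, n = 3 each). The log2 fold change was −0.57 (95% interval −0.79 to −0.36, 0.672-fold), with an adjusted p of 0.00654 by edgeR and 4.19e-05 by DESeq2. It passed on p and was short of the minimum fold. In the GC-corrected fit it was −0.34 (95% interval −0.54 to −0.14, edgeR adjusted p = 0.0205), below 0 and no longer past the threshold. When libraries were left out one at a time, it was −0.63 to −0.54, with an adjusted p by edgeR of 0.00374 to 0.0435. The adjusted p was below 0.01 only without sh-control replicate 1 in those 6 fits. Over all genes, those fits called 8 to 1117, against 794 with all 6 libraries.

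*HSPA4L* (ENSG00000164070, chr4:127781821-127840733, plus strand, 19 exons in the canonical transcript), the paralogue of *HSPA4* with a known role in testis, measured 322.5, 285.8 and 275.7 CPM in sh-control against 252.6, 196.1 and 231.4 CPM in sh-*RREB1*. All sh-*RREB1* libraries were below all sh-control libraries. The fitted log2 difference was −0.38 (edgeR adjusted p = 0.0620), and −0.17 in the GC-corrected fit (edgeR adjusted p = 0.138). On the opposite strand the Gencode annotation places exons of *RPL21P53* and ENSG00000261668 over those of *HSPA4L*. The strand-specific counts keep these separate.

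*HSPA14* (ENSG00000187522, chr10:14838306-14871741, plus strand, 14 exons in the canonical transcript) encodes HSP70L1, which works with the J-domain protein DNAJC2 at the ribosome on emerging chains. It measured 194.1, 190.1 and 185.6 CPM in sh-control against 135.8, 139.8 and 137.5 CPM in sh-*RREB1*. Relative to their means these were the tightest groups of the 10 genes, at 189.9 ± 4.23 and 137.7 ± 2.01 CPM (SD, n = 3 each), and they do not overlap. The log2 fold change was −0.46 (95% interval −0.67 to −0.25), with an adjusted p of 0.0118 by edgeR and 0.000578 by DESeq2. The GC-corrected value was −0.15 (95% interval −0.39 to 0.09, edgeR adjusted p = 0.382). *HSPA14* shares exon sequence with *MSANTD7* on the same strand in the later Gencode version used here for coordinates. Whether this overlap affected the authors' counts was not examined. Exons of *CDNF* lie on the opposite strand.

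**Figure D3:**
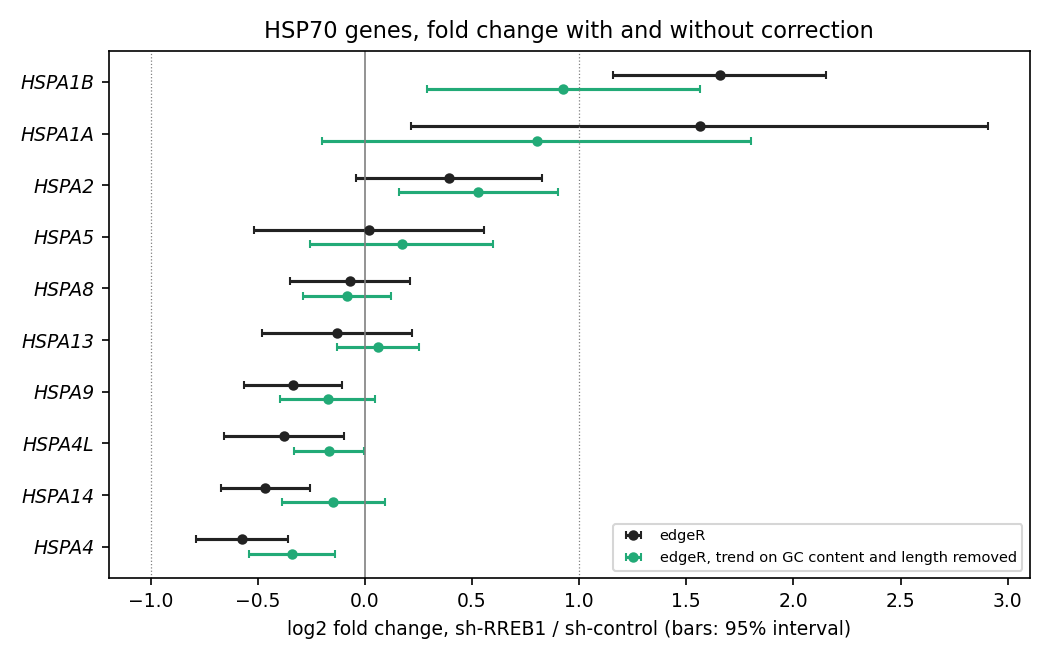
Points are the log2 fold change of sh-*RREB1* over sh-control (x axis) of each HSP70 gene with its 95% interval, black for edgeR and green for the GC-corrected edgeR fit, and dotted lines mark an absolute log2 fold change of 1. The correction moves *HSPA1B* from 1.66 to 0.93 and *HSPA4* from −0.57 to −0.34, and the interval of *HSPA14* then crosses 0.

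The 5 members with exons of lowest GC content, *HSPA13*, *HSPA4L*, *HSPA14*, *HSPA4* and *HSPA9*, lie between 35.9% and 42.8% and had the 5 lowest log2 fold changes, −0.57 to −0.13. The highest fold changes were those of *HSPA1B* and *HSPA1A*, at 58.8% and 59.8%. *HSPA4* was above 16.6% of the genes in its GC class and *HSPA14* above 23.7%, while *HSPA8* was at the middle of its class, above 49.6%.

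Levels of different genes were compared per length, as TPM (transcripts per 1000000, from reads divided by the length of all annotated exons). That length sets part of the order. Since reads from stretches that *HSPA1A* and *HSPA1B* share are not counted, the levels of both are understated per length by an amount not measured here. For *HSPA9* the length used was 9782 bases against 4404 in its canonical transcript. In sh-control the order began with *HSPA8* at 2555 to 2827 TPM and *HSPA4* at 608.5 to 798.3 TPM. *HSPA9* at 289.8 to 337.8 TPM and *HSPA14* at 280.8 to 355.5 TPM did not differ beyond their spread on this length, and *HSPA13* followed at 205.3 to 266.5 TPM. *HSPA5* at 81.9 to 192.6 TPM, *HSPA1B* at 97.5 to 112.6 TPM and *HSPA4L* at 91.2 to 129.2 TPM overlapped. *HSPA2* at 1.84 to 2.10 TPM and *HSPA1A* at 0.0830 to 0.687 TPM closed the order without overlap. In sh-*RREB1*, *HSPA1B* at 169.4 to 392.2 TPM was above *HSPA5* and *HSPA4L* in every library and overlapped *HSPA4*, *HSPA9*, *HSPA14* and *HSPA13*. The summed level of the 10 genes was 4235 to 5022 TPM in sh-control and 3659 to 3903 TPM in sh-*RREB1*. On the CPM scale, without regard to length, the sums were 5692, 6028 and 5773 in sh-control and 4829, 5605 and 5303 in sh-*RREB1*.

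The 5 genes whose profile over the 6 libraries was nearest to that of *HSPA1B*, by Euclidean distance of centred log2 CPM among 14483 genes, were *MAF* (distance 0.240), *CMTR2* (0.384), *SHISA2* (0.438), *NEGR1* (0.449) and *SOX4* (0.456). They were picked by closeness to *HSPA1B* in these same libraries, so their uncorrected log2 fold changes, 1.31 to 1.71, had to be near its 1.66. In the GC-corrected fit they were at 1.08 to 1.94. The 0.93 of *HSPA1B* in that fit was below all 5 of them. The exons of *MAF*, *CMTR2*, *SHISA2*, *NEGR1* and *SOX4* have 45.9%, 39.3%, 53.4%, 36.9% and 52.5% GC, against 58.8% for *HSPA1B*. Whether GC content sets their difference from *HSPA1B* was not tested.

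Genes that work with HSP70 were taken from lists of co-chaperones, heat shock factors, other chaperones and compartment partners, 118 genes besides the 10 members, of which 107 had enough reads to be tested. Of these, 2 were called higher in sh-*RREB1*, *HSPB8* and *HSF1*, and none lower by edgeR or by DESeq2. At an unadjusted edgeR p below 0.05, 24 were higher and 23 lower, counts that have no share of all genes beside them. The median log2 fold change was −0.08, with 45 above 0 and 62 below, beside 11857 above and 11447 below among all genes tested. Without the minimum fold 6 passed, the 4 others being *CCT4*, *CCT8*, *DNAJC8* and *DNAJC13*, all lower. The 2 calls are beside 3.41% of all genes, and the 6 without the minimum fold are beside 5.5% of all genes. In the GC-corrected fit 11 passed without the minimum fold, beside 11.4% of all genes.

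*HSPB8*, a small heat shock protein that joins BAG3 and HSP70 in selective autophagy, measured 3.39, 3.09 and 3.71 CPM in sh-control against 11.2, 14.1 and 12.5 CPM in sh-*RREB1*. The groups are far apart. Its log2 fold change was 1.89 (95% interval 1.48 to 2.30, edgeR adjusted p = 0.00166) and 1.90 in the GC-corrected fit (edgeR adjusted p = 1.31e-05), past both thresholds in both fits. Its exons have 49.2% GC. Of the 4 tested genes on the list of small heat shock proteins, edgeR called 1 and DESeq2 and the GC-corrected fit called 2, the other being *HSPB1*. The most abundant of the 4, *IFT25* (also *HSPB11*), was below the sh-control range in every sh-*RREB1* library, by −0.54 on the log2 scale (edgeR adjusted p = 0.0172).

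*HSPB1*, which encodes HSP27, measured 0.435, 2.21 and 4.08 CPM in sh-control against 12.4, 15.6 and 11.2 CPM in sh-*RREB1*. The sh-control libraries differed widely among themselves and lay below all sh-*RREB1* libraries. On the log2 scale the difference was 2.51 with an adjusted p of 0.0153 by edgeR, which missed the threshold, and the GC-corrected value was 1.41 with an adjusted p of 0.00284, which passed it. DESeq2 also called it (adjusted p = 0.00760). *HSPB1* exons have 63.6% GC.

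*HSF1*, the factor that binds the heat shock elements, measured 5.09, 7.10 and 7.57 CPM in sh-control against 20.0, 20.0 and 17.3 CPM in sh-*RREB1*. The groups do not overlap, and the log2 fold change was 1.53 (95% interval 1.10 to 1.97, edgeR adjusted p = 0.00324). Its exons have 65.4% GC, and the GC-corrected value was 0.06 (95% interval −0.35 to 0.47, edgeR adjusted p = 0.856). Of the other heat shock factor genes, *HSF2* differed by −0.47 on the log2 scale (edgeR adjusted p = 0.0136) and *HSF4*, at 0.280 and 0.919 CPM on average in the 2 groups, by 1.60 (edgeR adjusted p = 0.0345). *HSBP1*, a negative regulator of HSF1, had 0.01.

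Of 15 tested genes on the list of heat shock response genes, which HSF1 is known to induce, edgeR without correction called *HSPA1B* alone. The GC-corrected fit called *HSPB1* alone, and DESeq2 called both. On this list 8 genes had a log2 fold change above 0 and 7 below, with a median of 0.07. The groups did not overlap in 5 that were higher and 3 that were lower, beside 41.1% of all genes tested in either direction. *DNAJB1*, the main cytosolic HSP40 and a standard heat shock readout, was at 113.9 ± 16.9 and 119.8 ± 21.3 CPM (SD, n = 3 each), a log2 fold change of 0.07 that became −0.44 in the GC-corrected fit (edgeR adjusted p = 0.00307). *HSP90AA1* (−0.24), *HSP90AB1* (−0.04), *DNAJA1* (−0.37), *HSPD1* (−0.18) and *HSPH1* (−0.44) had log2 fold changes below 0, none past the threshold. Among those above 0 were *BAG3*, an exchange factor that links HSP70 to autophagy, at 0.74 (edgeR adjusted p = 0.0180), and *SERPINH1*, the collagen chaperone of the ER, at 0.92 (edgeR adjusted p = 0.0352). In the GC-corrected fit *BAG3* was at 0.20 and *SERPINH1* at 0.39 (edgeR adjusted p = 0.520 and 0.0267). *HSPA6*, an inducible HSP70 gene of another locus, was at 0.167 and 0.582 CPM on average in the 2 groups, higher by 1.87 on the log2 scale (edgeR adjusted p = 0.0918), and its libraries overlapped. *HSPA7* had 4 reads in all and was not tested.

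J-domain proteins choose the clients of HSP70. None of 13 in classes A and B and none of 32 in class C was called by edgeR or by DESeq2, with 5 and 14 past an unadjusted edgeR p below 0.05. In class C, 25 of 32 had a log2 fold change below 0, beside 11447 of all 23304 genes tested. The class C median was −0.22, and −0.08 in the GC-corrected fit. The median GC content of these genes was 42.7%, in a GC class of expressed genes whose median log2 fold change was −0.22. *DNAJC8* (−0.63, edgeR adjusted p = 0.00787) and *DNAJC13* (−0.68, edgeR adjusted p = 0.00752) were lower in sh-*RREB1* and short of the minimum fold. *DNAJC10* and *DNAJC7* had log2 fold changes of −0.21 and −0.50. In the GC-corrected fit *DNAJC13* and *DNAJC7* were both at −0.45 (edgeR adjusted p = 0.00278 and 0.00611). *DNAJC8* was at −0.38 and *DNAJC10* at −0.08 in that fit (edgeR adjusted p = 0.0384 and 0.586). In classes A and B the median was −0.01, with *DNAJA2* at 0.02, *DNAJB6* at −0.01 and *DNAJA3* at 0.45.

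None of 12 nucleotide exchange factors was called by edgeR, with 4 past an unadjusted p below 0.05, and DESeq2 called 1, *HSPBP1*. The edgeR log2 fold change of *HSPBP1* was 1.61, and 0.49 in the GC-corrected fit (edgeR adjusted p = 0.0574). *HYOU1*, the large ER relative of HSP70, differed by 0.43 on the log2 scale (edgeR adjusted p = 0.271), *BAG4* by −0.13, *GRPEL1* by 0.05 and *GRPEL2* by 0.04. Of the 13 tested genes of HSP90 and its adaptors to HSP70, edgeR called none, 5 were past an unadjusted p below 0.05, and DESeq2 called *CDC37* and *STUB1*. Their edgeR log2 fold changes were 1.10 and 1.51, and 0.15 and 0.20 in the GC-corrected fit. *HSP90B1* had a log2 fold change of −0.25, *ST13* of −0.18 and *PTGES3* of −0.08.

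Chaperonins and prefoldins lay mostly below 0, with 12 of 16 genes there, beside 11447 of all 23304 genes tested. Their median log2 fold change was −0.22. The median GC content of the list was 43.4%, in a GC class of expressed genes whose median log2 fold change was also −0.22. edgeR and DESeq2 called none. At an unadjusted edgeR p below 0.05, 5 passed, all lower in sh-*RREB1*, a count that has no share of all genes beside it. *CCT4* was at 987.2 ± 46.4 CPM in sh-control and 632.7 ± 20.7 CPM in sh-*RREB1* (SD, n = 3 each), a log2 difference of −0.64 (edgeR adjusted p = 0.00474) that stayed at −0.41 in the GC-corrected fit (edgeR adjusted p = 0.00612). *CCT8* had −0.58 (edgeR adjusted p = 0.00654) and −0.33 after correction (edgeR adjusted p = 0.0267). *TCP1* had −0.39 and *CCT3* −0.07. The median of the list was −0.01 in the GC-corrected fit.

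In the ER and in mitochondria the partners of *HSPA5* and *HSPA9* gave no call by edgeR among 12 and 11 tested genes, with 6 and 3 past an unadjusted p below 0.05. DESeq2 called *SDF2L1* of the ER list and none of the mitochondrial list. The edgeR log2 fold change of *SDF2L1* was 1.37, and 0.15 in the GC-corrected fit. *PDIA6* had a log2 fold change of 0.10, *PDIA4* of 0.43 and *HSPE1*, the partner of *HSPD1* in the mitochondrial chaperonin, of 0.07. Medians were −0.13 and 0.05. The relatives *HSPA12A* and *HSPA1L* had −0.40 and −0.38, and none of the 6 tested genes of the wider HSP70 superfamily was called by edgeR or by DESeq2, with 3 past an unadjusted edgeR p below 0.05.

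**Figure D4:**
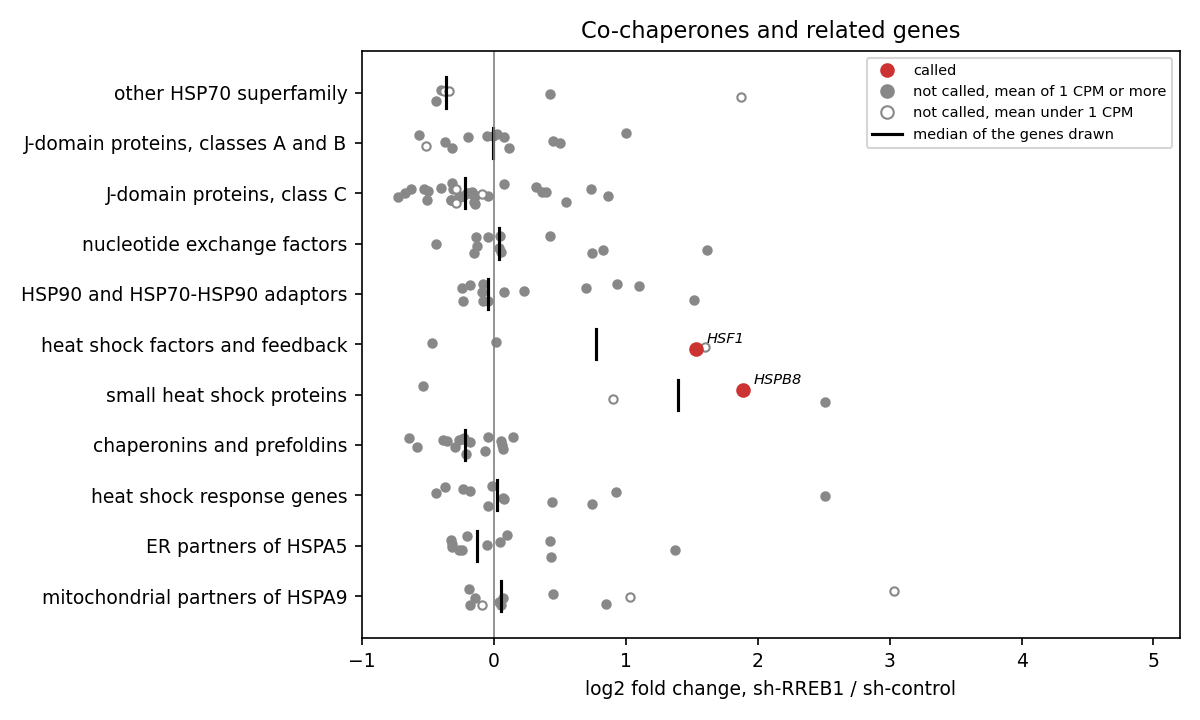
Points are the log2 fold change of sh-*RREB1* over sh-control (x axis) of the tested partner genes in each list (y axis), red for the 2 called genes, grey for the others and open for those with a mean under 1 CPM, and black bars are medians of the genes drawn. *HSF1* and *HSPB8* are the red points, at 1.53 and 1.89. The chaperonins and the class C J-domain proteins lie mostly to the left of 0.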

How the data were processed

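The authors aligned reads of strand-specific total RNA libraries to hg38 with STAR and deposited, library by library and in a merged table, unnormalized counts of reads on each gene. Sense-strand counts were used, and lines that name no gene were left out. Of 58037 identifiers, those sharing a symbol were reduced to the one with the most reads, and genes with fewer than 10 reads over the 6 libraries were not tested. edgeR 4.0.16 (quasi-likelihood test, TMM scaling, condition as the only term, Benjamini-Hochberg adjustment over all genes tested) was run in R 4.3.3, with DESeq2 1.42.0 as an alternative. Intervals are at 95%. Exonic length, GC content and coordinates came from Gencode on GRCh38, and 5 degrees of freedom were used for the spline trends on GC content and length. Promoters came from RefSeq. In named lists, called genes and otherwise up to 4 genes with the highest mean CPM are given, apart from 1 gene that is not reported here. Other genes were named after their values were seen. The members and lists were chosen with earlier results of these data known. Replicates differed by more than sampling noise (lowest chi-square per degree of freedom 4.74). The authors' fold changes were not used.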

Additional observations from a re-analysis of the deposited data

Results flagged for a closer look

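Reads on the strand opposite to the gene were outside the comparisons above. For *HSPA4L*, they were 1.13%, 0.855% and 0.640% of the reads on both strands in sh-control and 2.75%, 1.40% and 2.15% in sh-*RREB1*, so that the lowest sh-*RREB1* library, at 1.40%, was above every sh-control library. These shares rest on 57 to 177 opposite-strand reads per library. Scaled as CPM, the opposite-strand reads were 1.78 to 3.70 in sh-control and 2.79 to 7.13 in sh-*RREB1*, and the groups overlapped. For *HSPA14*, they were 0.513%, 0.424% and 0.318% in sh-control and 0.619%, 0.652% and 0.573% in sh-*RREB1*, the lowest of which, 0.573%, was again above every sh-control library, from 10 to 24 reads. Its opposite-strand CPM overlapped too, at 0.592 to 1.001 in sh-control and 0.793 to 0.917 in sh-*RREB1*, while its reads on the sense strand were lower in sh-*RREB1*. Of 21586 genes, 7.77% had an opposite-strand share that was higher in all sh-*RREB1* libraries than in all sh-control libraries. The annotation places exons of other genes on the opposite strand at both loci. The difference was not tested.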

How the results depend on the processing

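The log2 fold change of *HSPA1B* was above 0 in all 26 alternatives in which it was computed, and its call was lost as given in the report. The number of HSP70 genes called was 1 with the other scalings, filters, strand, table and identifier choices, with DESeq2, with the replicate block and with an adjusted p below 0.05. It was 0 with the GC correction, 0 with the replicate block together with the GC correction, 0 to 1 with each library left out in turn (0 without sh-control replicate 2 or 3 or sh-*RREB1* replicate 1 or 3) and 2 without a minimum fold. With the GC correction and each library left out, which was chosen after seeing the data, it was 0 in 5 fits and 1 without sh-*RREB1* replicate 2. The fit without the 2 libraries that stand apart, which called 1, was also chosen after seeing the data. The replicate numbers did not pair the samples (correlations of same-numbered deviations 0.49, 0.38 and −0.28). With the replicate block 1684 genes of all tested were called, compared to 794 without it, and 9 partner genes compared to 2.

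The 2 partner calls became 7 with DESeq2, 7 with a minimum of 1 read, 8 at an adjusted p below 0.05, 6 without a minimum fold, and 0 to 5 with each library left out, 0 without sh-control replicate 2, sh-*RREB1* replicate 1 or sh-*RREB1* replicate 3 and 5 without sh-control replicate 1. With the GC correction and no library left out there were 2, but these were *HSPB1* and *HSPB8*, without *HSF1*. There was 1 with the GC correction and sh-control replicate 2 or any sh-*RREB1* replicate left out. Over all genes, 8 to 1117 were called with each library left out, and 1647 by DESeq2. Of all calls 79.5% were higher in sh-*RREB1*, and 60.2% with the GC correction.

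Values near 0 changed sign. *HSPA13* had a log2 fold change of 0.061 with the GC correction, 0.065 with the replicate block and the correction, and −0.27 to 0.031 with each library left out. *HSPA5* had −0.094 with upper-quartile scaling and −0.20 to 0.29 with each library left out. *HSPA8* had 0.0099 with library totals alone and −0.16 to 0.027 with each library left out. The median of the 10 genes stayed between −0.19 and −0.01 in all alternatives in which it was computed. It was not computed with the GC correction and each library left out. The causes were not tested. With 3 libraries a group, and 12257054 reads in the shallowest, *HSPA1A* and other genes of few reads are measured loosely.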
